A study of Caenorhabditis elegans with 22 samples.

Results

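Contact of the genome with the nuclear envelope was read in intestine cells of Caenorhabditis elegans L1 larvae that lack CEC-4. The comparison set 3 libraries of Dam::EMR-1 in cec-4 larvae against 3 libraries of GFP::Dam in cec-4 larvae, paired by replicate number. These are 6 of the 22 libraries of the series, and they were chosen by genotype, fusion and RNAi food as the labels give them. All 10030 nuclear bins of 10 kb entered, of which 9960 passed the filter on low counts and were tested. Strain GW1379 carries Dam::EMR-1 and strain GW1380 carries GFP::Dam, both with the allele cec-4(ok3124). Wild-type larvae, strains GW1377 with Dam::EMR-1 and GW1378 with GFP::Dam (3 libraries each), served as a reference and share no library with the cec-4 comparison. Mothers of all these larvae fed for 66 h at 20 °C on bacteria making control double-stranded RNA, and the larvae then spent 2.5 h in liquid culture with food bacteria that lack Dam. The fusions sat behind the promoter of hsp-16.41, which was not induced, and a FLP recombinase under the elt-2 promoter switched them on in the intestine. The remaining groups of the series received mrg-1 RNAi and entered only the estimate of the spread.

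In DamID a bacterial adenine methyltransferase is fused to a protein, and GATC sites near that protein become methylated, cut, amplified and sequenced. EMR-1 is emerin, a LEM-domain protein of the inner nuclear membrane that binds lamin, so Dam::EMR-1 marks DNA close to the nuclear periphery. GFP::Dam is free in the nucleus and marks accessible DNA, so the log2 ratio of the fusions measures contact relative to accessibility. CEC-4 is a chromodomain protein of the nuclear envelope that binds methylated lysine 9 of histone H3, a mark that is rich on the arms of worm autosomes. Worm chromosomes have no single centromere, and their gene-rich centres are flanked by arms rich in repeats and in young gene families. The question was which bins are still high in Dam::EMR-1 without this anchor.

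The Dam::EMR-1 libraries held 8183134, 4348243 and 6630263 reads in nuclear bins and the GFP::Dam libraries 8338717, 6092461 and 18553316 in replicates 1, 2 and 3. The median tested bin held 209, 250 and 213 Dam::EMR-1 reads and 206, 408 and 490 GFP::Dam reads. Dam::EMR-1 replicate 1 had no read in 9.95% of the 10 kb bins, against 0.648% to 3.31% in the other 5 libraries. The bin of the ribosomal RNA repeats on chromosome I (15060001 to 15070000) took 31.3%, 7.06% and 25.2% of the GFP::Dam reads, but 0.914%, 0.842% and 0.626% of the Dam::EMR-1 reads. Its log2 ratio was −5.04 ± 0.99 (SE, n = 3 pairs; edgeR's adjusted p = 0.000645), and how repeat reads were placed is not given in the sources used here. Across tested bins the ratios of the 3 pairs correlated at Pearson r 0.841 (pairs 1 and 2), 0.818 (1 and 3) and 0.890 (2 and 3), a description over bins that share their libraries. Pair 2 was the flattest, with a standard deviation over bins of 1.67 against 2.32 in pair 1 and 2.11 in pair 3 (log2). Strains of a replicate number were grown in parallel according to the labels, so libraries were paired by number. The edgeR and limma tests took their spread from all groups of the series, not from these 3 pairs alone. In DNA from whole larvae, fewer marked cells and less methylation per cell cannot be told apart. Reads are PCR products without molecular identifiers.

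Without CEC-4, Dam::EMR-1 still exceeded GFP::Dam in a large part of the genome. Of 9960 tested bins, 2791 (28.0%) were called higher in Dam::EMR-1 and 2488 (25.0%) lower, 53.0% in either direction, at an adjusted p under 0.05 in edgeR's quasi-likelihood test with the replicate number as a block. The median log2 ratio was 0.16, and the 5th and 95th percentiles were −4.13 and 2.54. Autosome arms, the outer parts of each chromosome divided into 3 equal lengths, held most of the high bins. There 2330 of 5458 bins (42.7%) were higher, 875 (16.0%) were lower, and the median was 0.93. Autosome centres showed the opposite balance, with 222 of 2736 bins (8.11%) higher, 1008 (36.8%) lower and a median of −0.88. On X, 227 of 1177 arm bins (19.3%) were higher and 357 (30.3%) lower, and 12 of 589 centre bins (2.04%) were higher and 248 (42.1%) lower. The zero of the ratio depends on the scaling. Its median was 0.44 with scaling by library size, −0.04 with DESeq2 and −0.00 without the ribosomal RNA bin, an alternative added after seeing the data, so the ratios are best read against the median of all bins.

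**Figure D1:**
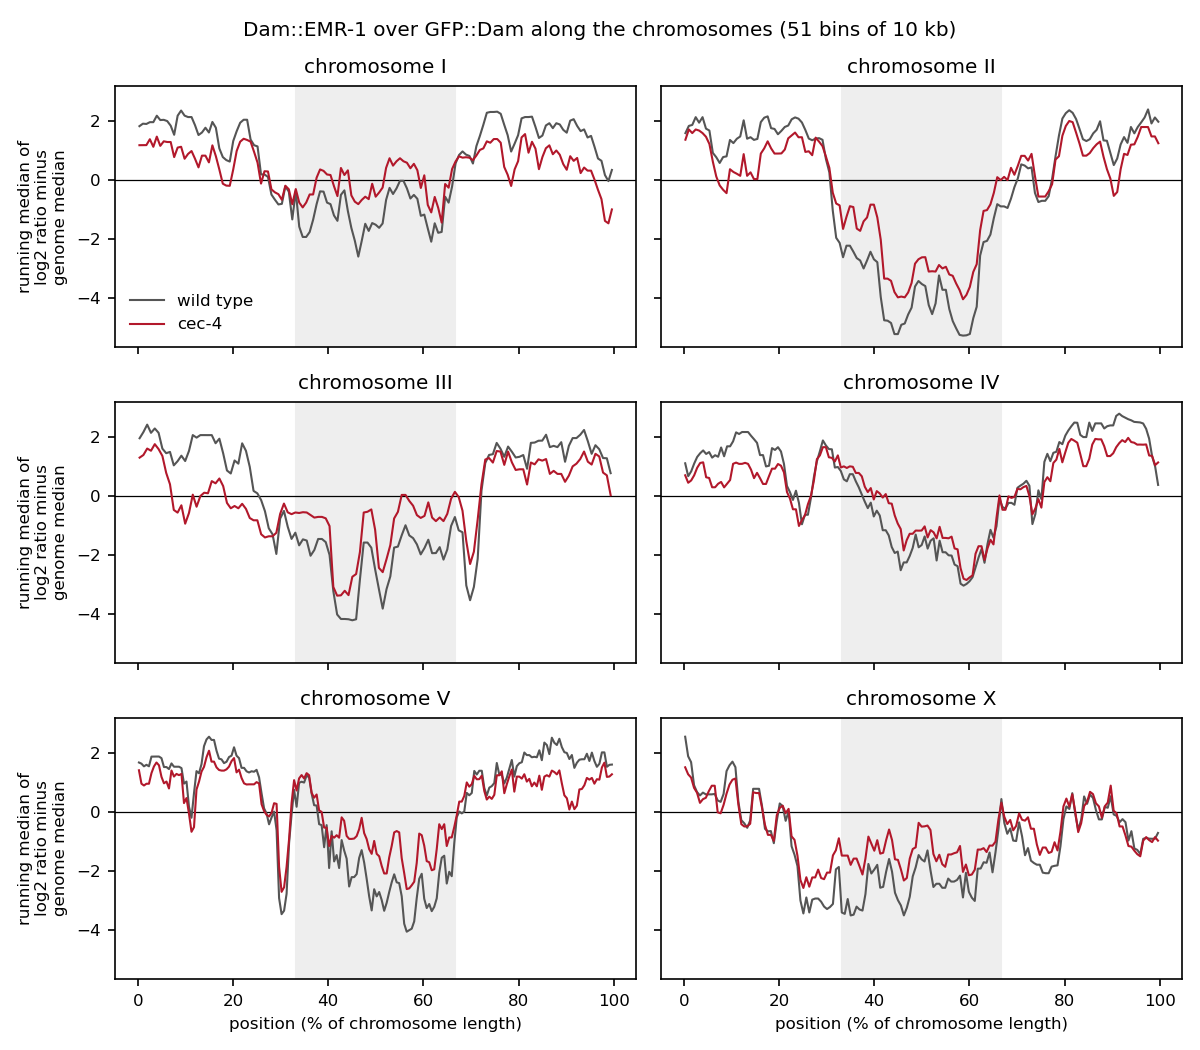
Running median over 51 bins of 10 kb of the fitted log2 ratio of Dam::EMR-1 to GFP::Dam, minus the median of all tested bins, against position as a percentage of chromosome length, for cec-4 (red) and wild type (grey), with the centre shaded and points drawn at regular intervals. In cec-4 most arms of I to V lie above the line, the centre of II lies lowest, and the middle of I stays near the line at −0.41.

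The depth of the interior differed widely between chromosomes. Chromosome II had the deepest centre (5090001 to 10190000), where 305 of 509 bins were lower, 11 were higher and the median was −2.46. The centre of chromosome I (5020001 to 10050000) had the highest median among centres, 0.08, with 87 of 503 bins higher and 121 lower. The centres of III, IV and V lay between, at medians of −0.76, −0.86 and −0.68, and the centre of X at −1.26. Values per pair kept this order at both ends: in pairs 1, 2 and 3 the mean ratio of the II centre was −2.34, −2.05 and −2.18, and that of the I centre −0.83, −0.20 and −0.23. The pairs of the 2 centres did not overlap.

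Higher bins outnumbered lower ones in 9 of 10 autosome arms. The right arm of IV (11660001 to 17493829) had the highest median, 1.32, with 257 of 579 bins higher, followed by the right and left arms of V at 1.15 and 1.11. The left and right arms of II stood at 1.00 each, with 232 of 507 and 240 of 509 bins higher. The left arm of III (1 to 4590000) stood apart, with 115 of 455 bins higher, 120 lower and a median of −0.02. Its mean per pair was −0.35, −0.21 and −0.34, below each pair's value in each of the 9 other autosome arms, the lowest of which was 0.22. In wild type the same arm had 193 bins higher and 98 lower. The left and right arms of X had medians of −0.32 and −0.40, below that of the I centre, with 131 of 586 and 96 of 591 bins higher.

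**Figure D2:**
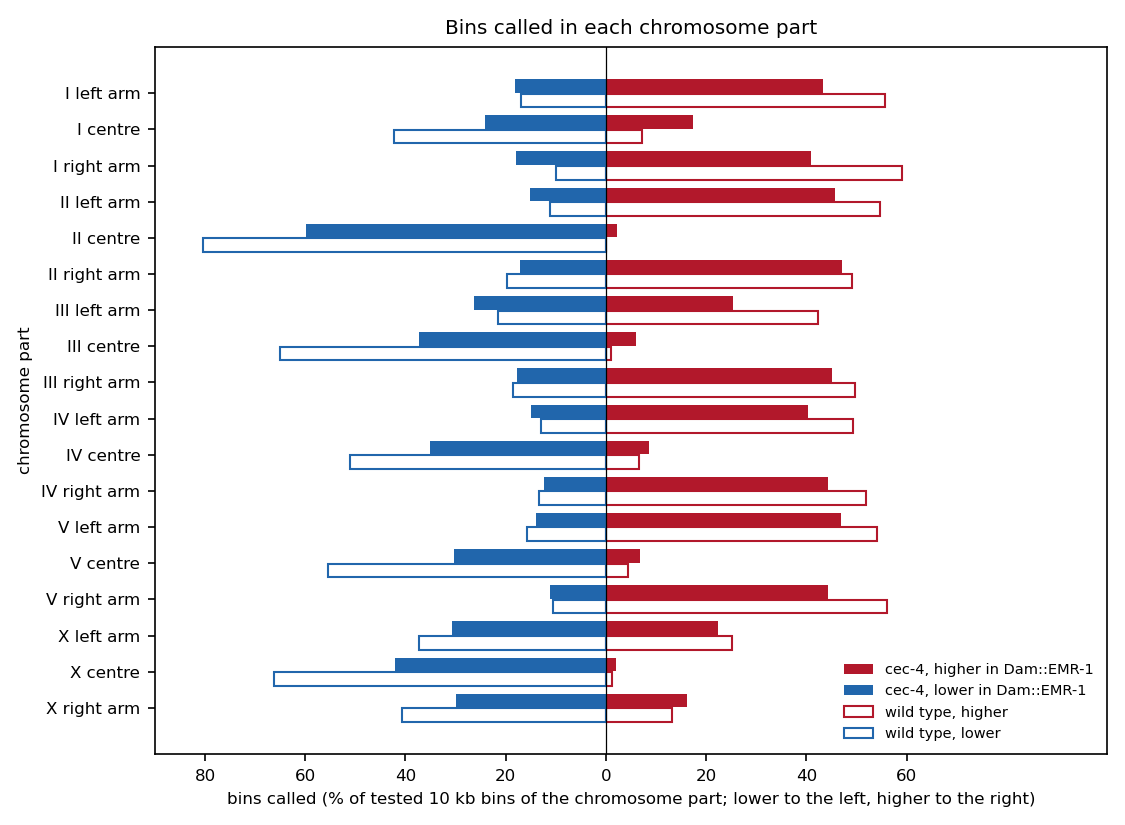
Percentage of tested 10 kb bins called higher (red, right) or lower (blue, left) in Dam::EMR-1 than in GFP::Dam in each of 18 chromosome parts, for cec-4 (filled) and wild type (open). In cec-4 higher bins outnumber lower ones in 9 of 10 autosome arms, with the left arm of III as the exception, and lower bins outnumber higher ones in every centre.

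The difference between arms and centre within a library pair depends on the scaling between libraries only through the pseudocount of 1 CPM, which weighs most in bins with few reads. On autosomes it was 1.74, 1.50 and 1.37 in pairs 1, 2 and 3 of cec-4, a mean of 1.54 ± 0.19 (SD, n = 3). All 3 pairs were above 0, and the exact two-sided sign-flip permutation p of 0.25 is the smallest that 3 pairs allow. On X it was 0.80, 0.87 and 0.77, a mean of 0.81 ± 0.05 (SD, n = 3; exact permutation p = 0.25). The contrast was present in the fusion libraries before any ratio. Scaled log2 counts of arms minus centres were 2.29, 1.19 and 1.66 in Dam::EMR-1 and 0.54, −0.31 and 0.29 in GFP::Dam, without overlap (exact two-sided permutation p = 0.1, the smallest that 3 against 3 allows).

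Each of the 12 arms exceeded the centre of its chromosome in all 3 pairs. In limma over the 12 arms of all 11 pairs of the series, the difference ran from 0.75 ± 0.13 (SE) on the left arm of I to 2.74 ± 0.16 on the left arm of II, and the largest adjusted p was 1.22e-05. Chromosome II kept the strongest contrast, at 2.92, 2.55 and 2.62 per pair, and chromosome I the weakest among autosomes, at 1.14, 0.68 and 0.46. These groups of 3 did not overlap. Chromosomes III, IV and V had means of 1.23, 1.51 and 1.47, and their pairs overlapped. All 12 differences were smaller than in wild type by limma, and no pair of cec-4 reached the wild-type range in any arm. On autosomes the wild-type mean was 2.83 ± 0.30 (SD, n = 3) and on X 1.48 ± 0.15 (exact two-sided permutation p = 0.1 for each, the smallest possible). The gap to wild type was smallest on the right arm of X, at −0.59 ± 0.16 (SE; limma's adjusted p = 0.00137), and largest on the left arm of III, at −1.69 ± 0.19 (adjusted p = 9.05e-08).

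**Figure D3:**
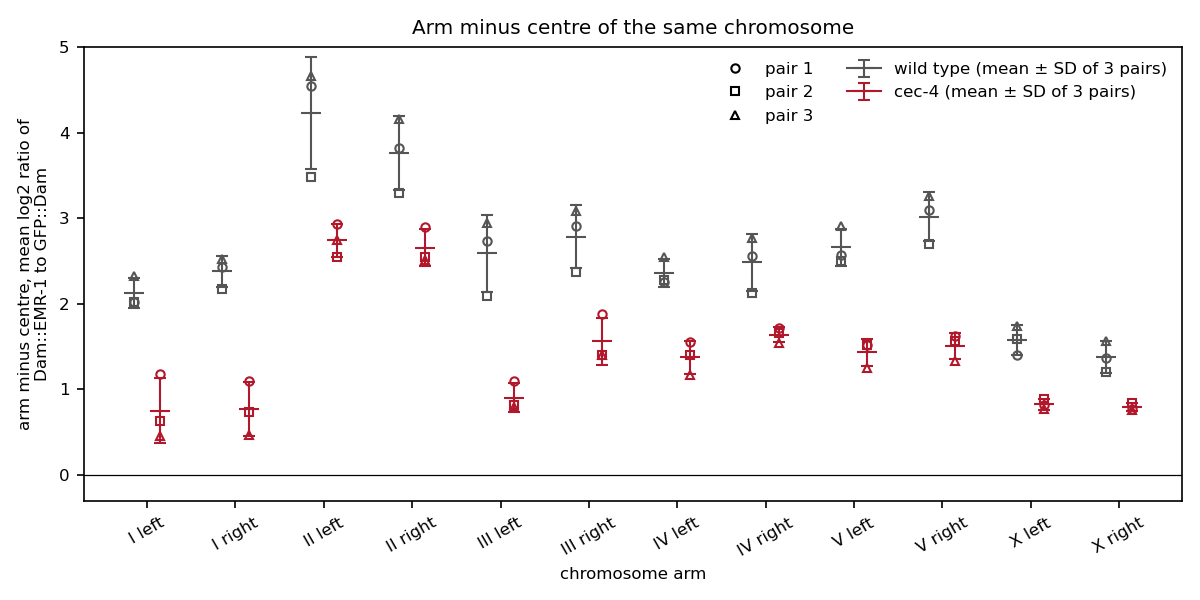
Mean log2 ratio of Dam::EMR-1 to GFP::Dam in each of 12 arms minus that of the centre of the same chromosome, for each of 3 pairs (symbols) of cec-4 (red) and wild type (grey), with mean and SD. All cec-4 values lie above 0 and below all wild-type values of the same arm.

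The ratio did not rise evenly towards chromosome ends. On autosomes of cec-4 the outermost 50 kb had a median of −0.39, with 9 of 46 bins higher and 13 lower. The median was 0.89 from 50 to 100 kb, 1.47 from 200 to 500 kb, where 167 of 298 bins (56.0%) were higher, and 1.34 from 500 to 1000 kb. It stayed between 0.91 and 1.14 out to 4000 kb, then declined to 0.45 from 4000 to 5000 kb and to −0.98 beyond 6000 kb. The pairs had the same sign in the outermost 50 kb, at −0.66, −0.22 and −0.54 (mean ratio), and from 200 to 500 kb, at 0.86, 0.88 and 0.77. The last 200 kb differed from end to end. The left end of X had the highest median, 1.62, with 9 of 20 bins higher and 0 lower. The right end of I, next to the ribosomal RNA repeats, had 0 of 20 bins higher and 12 lower, with a median of −1.38 and pair means of −1.81, −1.09 and −1.83. The right end of III had a median of −0.52, the right end of X −0.48, and the other 8 ends lay between 0.71 and 1.29.

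The running median gave the width of the central zone that stays below the median of all bins, measured outwards from the middle of each chromosome. On chromosome I this zone spanned only 350 kb in cec-4, against 5830 kb in wild type, since the running median crossed the line close to the middle on both sides. On II it ran from 4760001 to 10030000, and on V from 8140001 to 14040000. It was 5270 kb on II, 5100 kb on III, 4140 kb on IV, 5900 kb on V and 7860 kb on X, against 5970, 6430, 5640, 6180 and 7900 kb in wild type. On III the zone was shifted to the left, from 2520001 to 7620000 in cec-4 and from 3510001 to 9940000 in wild type. The running median was lowest on II, at −4.30, and next on III, at −3.54. These values and widths are descriptions with no test.

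Most bins that were high in wild type were also high in cec-4. In wild type 3205 bins (32.2%) were higher and 3251 (32.6%) lower under the same model, 64.8% in either direction. Of the 3205, 2476 (77.3%) were called higher in cec-4, 729 were not called and 0 were called lower, and the 2476 made up 88.7% of the cec-4 higher bins. The median ratio of all 3205 was 1.77 in cec-4 and 2.20 in wild type. Of the 3251 bins lower in wild type, 2203 (67.8%) were lower in cec-4. The median of all 3251 was −2.33 in cec-4 and −3.25 in wild type. Both sets were chosen by their wild-type call, which favours values far from 0 in wild type. Among autosome arms the share of wild-type higher bins still called ranged from 54.9% on the left arm of III (106 of 193) and 68.6% on the right arm of I (203 of 296) to 86.4% on the right arm of II (216 of 250). Counts depend on depth, and the median tested bin held 80 reads in the shallowest wild-type Dam::EMR-1 library against 209 in that of cec-4, whose part in these shares was not tested. No 10 kb bin passed the test of a difference between cec-4 and wild type (0 of 9960, 0% in each direction, edgeR), while 1127 had an unadjusted p under 0.05. DESeq2 gave 82 bins that were higher in cec-4 and 104 that were lower.

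The 315 bins called higher in cec-4 but not in wild type lay on all chromosomes. In autosome centres 122 of the 222 higher bins were of this kind, 52 of them on I, against 143 of 2330 in autosome arms. Of the 315, 3 were called lower in wild type, and they are named here after their values were seen. They overlap swsn-9, cnnm-4 and nhr-23 on I (7220001 to 7230000, 1.32 ± 0.44 in cec-4 and −1.08 ± 0.45 in wild type), atad-3 on II (0.91 ± 0.34 and −0.79 ± 0.34), and glb-3 and jmjd-5 on V (0.82 ± 0.33 and −0.97 ± 0.33, SE). Their differences from wild type were not called at 10 kb (edgeR's adjusted p = 0.251, 0.266 and 0.251).

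At 100 kb more reads fell in each window, and 373 of 1004 windows (37.2%) were higher in cec-4 and 361 (36.0%) lower, 73.1% in either direction. Against wild type 192 (19.1%) rose and 61 (6.08%) fell. The windows that rose comprised 125 of the autosome centres, 34 of the X centre, 18 of X arms and 15 of autosome arms, and 60 of the 61 that fell belonged to autosome arms. The left arm of III held 17 of them in its 46 windows, the right arm of I 14 in 51 and the right arm of V 11 in 71. These counts depend on the fit, since without the replicate block 46 rose and 11 fell, and without the ribosomal RNA bin 87 rose and 115 fell. Windows called in opposite directions in cec-4 and wild type numbered 5 and are given after their values were seen. The window at 6500001 on I (let-607) stood at 0.55 ± 0.24 in cec-4 and −1.21 ± 0.24 in wild type, and that at 7600001 on III (the fibrillin-related gene fbn-1) at 0.47 ± 0.20 and −0.48 ± 0.20 (SE). In the other direction, the windows at 2800001 (klf-1) and 3400001 (golg-4) on III stood at −0.65 ± 0.19 and −0.67 ± 0.17 in cec-4, and at 0.51 ± 0.19 and 0.55 ± 0.17 in wild type. The window at 19900001 on V (dhs-24) stood at −0.49 ± 0.21 and 0.72 ± 0.21. These windows were chosen by opposite calls, which largely fix a difference from wild type, so no test of that difference is given for them.

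The highest 100 kb window of each chromosome in cec-4 ranged from 2.22 ± 0.22 on I to 2.60 ± 0.49 on X, where it began at 200001. On III the window at 12700001 stood at 2.53 ± 0.30 and on V that at 20300001 at 2.45 ± 0.25 (SE). The lowest windows ranged from −4.85 ± 0.38 on III, at 5800001, to −3.46 ± 0.56 on IV, at 11200001. These windows were ranked by their cec-4 ratio, which also enters the difference from wild type, so no such difference is given for them.

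The 12 named bins with the highest ratios in cec-4 all lay in arms, from 3.34 to 3.98. Bins outside the naming limits on calls, reads, genes and spacing were left out, and their ratios reached 7.12 on the right arm of IV. Genes were named by the protein-coding gene that covers most of the bin, and each value is that of the whole 10 kb bin. The highest of the 12 was the bin of mlt-4, an ankyrin-repeat gene needed for molting (chromosome V, 20281387 to 20289417). In replicates 1, 2 and 3 it had 297, 75 and 91 reads with Dam::EMR-1 and 10, 19 and 7 with GFP::Dam. Every Dam::EMR-1 library was above every GFP::Dam library, and the fitted ratio was 3.98 ± 0.88 (SE; edgeR's adjusted p = 0.00144). The bin of bah-1, a gene named for biofilm attachment to the head (chromosome I, 11465142 to 11467612), had 695, 756 and 1127 reads against 30, 164 and 126, again without overlap, and a ratio of 3.66 ± 0.40 (edgeR's adjusted p = 5.06e-05). The bin of irld-20, a gene of the insulin and EGF receptor-like L domain family on III, had 1589, 562 and 1072 reads against 78, 106 and 164, and a ratio of 3.62 ± 0.47. Arp-1 on II stood at 3.55 ± 0.50, from 3226, 604 and 2097 reads against 174, 135 and 292.

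The serpin gene srp-1 on V (3.45 ± 0.42), pes-2.2 on I (3.40 ± 0.42), the patched-related gene ptr-3 on II (3.40 ± 0.48), the neuropeptide receptor gene npr-37 on IV (3.37 ± 0.56) and the neuropeptide gene nlp-13 on V (3.34 ± 0.66) were also called higher in wild type, where these 5 bins ranged from 3.06 to 4.00. In all 5 the Dam::EMR-1 reads exceeded the GFP::Dam reads of every replicate. The other 3 were not called in wild type and had few GFP::Dam reads in at least 1 library. The nuclear hormone receptor gene nhr-5 on IV had 284, 172 and 298 reads against 1, 78 and 29 (3.62 ± 1.07; wild type 1.63 ± 0.96). Nhr-229, of the same family, had 27, 179 and 544 against 3, 44 and 32 (3.38 ± 1.03; wild type 1.32 ± 0.96), and its call ended without GFP::Dam cec-4 replicate 3 (edgeR's adjusted p = 0.0589). The otopetrin-like proton channel gene otpl-2 on V had 32, 133 and 435 against 2, 50 and 2 (3.62 ± 1.20), and its call ended in 4 of 12 alternatives, without Dam::EMR-1 replicate 3, GFP::Dam replicate 1 or 3 or the other groups. The bins were ranked by their cec-4 ratio, so no test of the difference from wild type is given for them.

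The 12 named bins with the lowest ratios ran from −7.48 to −6.47, 8 in centres and 4 in arms, and all 12 were also called lower in wild type. The lowest of the 12 was that of epc-1, the worm relative of enhancer of polycomb (chromosome III, 12599630 to 12608467), which lies in an arm. It had 8, 22 and 3 reads with Dam::EMR-1 and 1797, 1036 and 6053 with GFP::Dam, without overlap (−7.48 ± 0.92, SE; edgeR's adjusted p = 5.94e-05). The bin of nrfl-1, a PDZ-domain gene of the NHERF family (chromosome IV, 9119092 to 9130381), had 0, 7 and 7 reads against 394, 779 and 2902 (−7.42 ± 1.04). The sulfatase gene sul-3 on X had 8, 44 and 5 reads against 2640, 1464 and 3563 (−7.07 ± 1.01). The elongin C gene elc-1 (3, 10 and 4 reads against 873, 331 and 1598) and the glutamine-rich gene pqn-41 (9, 3 and 0 against 430, 170 and 2013) were low islands in the left arm of III, at −6.89 ± 1.21 and −6.74 ± 1.11. In all these bins the Dam::EMR-1 counts were below 50 and every GFP::Dam count was above 150.

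Ada-2, a transcriptional adaptor of the SAGA type, stood at −6.76 ± 0.70 (8, 13 and 22 reads against 1702, 715 and 5908), and the CREB-related gene crh-2 at −6.86 ± 0.96. The Mediator subunit gene mdt-15, which controls fat metabolism genes in the intestine, stood at −6.65 ± 0.78 (14, 28 and 8 reads against 2159, 1137 and 5455), and the Krüppel-like factor gene klf-3, also a regulator of fat storage, at −6.49 ± 1.09. The protein disulfide isomerase gene pdi-2 in the left arm of X stood at −6.63 ± 1.11 (113, 78 and 9 reads against 6570, 2246 and 12119) and the chaperonin subunit gene cct-2 at −6.47 ± 0.92. The sex-determination receptor gene tra-2 stood at −6.50 ± 0.99 (SE). Of the 12, 5 lay on II (crh-2, ada-2, tra-2, klf-3 and cct-2) and 4 on III. In 21 of the 24 named bins pair 2 lay nearest 0.

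**Figure D4:**
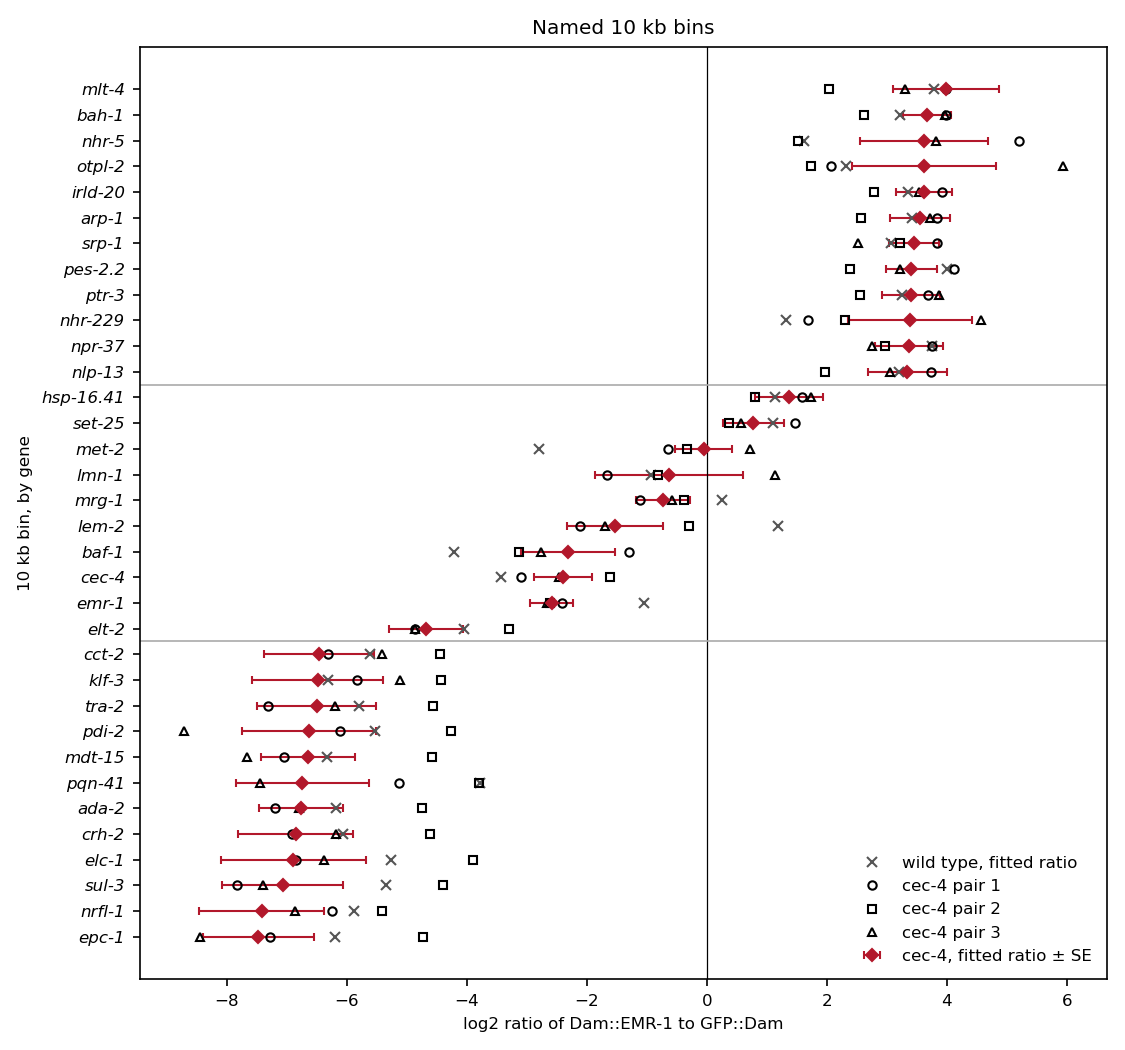
Log2 ratio of Dam::EMR-1 to GFP::Dam in 34 named bins, with the fitted value and its SE in cec-4 (red diamonds), the 3 cec-4 pairs (open symbols) and the fitted wild-type value (crosses). The 12 bins named as highest lie between 3.34 and 3.98, the 12 named as lowest between −7.48 and −6.47, and the genes named for their role between 1.36 and −4.68.

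Genes tied to the experiment itself were read next. The bin of cec-4 (chromosome IV, 7576181 to 7577325) had 97, 207 and 168 reads with Dam::EMR-1 and 694, 901 and 1814 with GFP::Dam (−2.40 ± 0.48, SE; edgeR's adjusted p = 0.000746). The gene covers 1145 bases of that bin and the labels give no breakpoints of ok3124, so the bin does not check the deletion. The bin of emr-1 itself (chromosome I, 1842445 to 1843222) had 426, 207 and 295 reads against 1819, 1827 and 3591 (−2.59 ± 0.35, edgeR's adjusted p = 7.27e-05; wild type −1.05 ± 0.34). The bin of baf-1, which encodes a DNA-bridging partner of LEM-domain proteins, stood at −2.32 ± 0.79 (edgeR's adjusted p = 0.0203), and its call ended without the replicate block and without Dam::EMR-1 replicate 2 or 3 or GFP::Dam replicate 3, at an adjusted p of up to 0.0895. The bins of lem-2, a paralogue of emr-1 (−1.53 ± 0.80), the lamin gene lmn-1 (−0.63 ± 1.23) and mrg-1 (−0.73 ± 0.45) were not called. The lmn-1 pairs were −1.66, −0.81 and 1.13 and lay on both sides of 0.

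The histone H3K9 methyltransferase genes met-2 and set-25 were not called in cec-4, at −0.06 ± 0.47 and 0.77 ± 0.51 (edgeR's adjusted p = 0.929 and 0.206). The met-2 bin, in the centre of III, was called lower in wild type at −2.80 ± 0.51, but its difference of 2.74 ± 0.68 was not called (edgeR's adjusted p = 0.251). Hsp-16.41, whose promoter drives the fusions, stood at 1.36 ± 0.56 (edgeR's adjusted p = 0.0501). Elt-2, the GATA factor gene of intestinal identity whose promoter drives the recombinase (chromosome X, 10481240 to 10483441), stood at −4.68 ± 0.62, from 81, 39 and 28 reads against 2019, 611 and 1883, without overlap. Reads of transgene copies of these promoters cannot be told apart from those of the loci where they share sequence. Of 26 bins of genes of the nuclear envelope and H3K9 methylation 12 were lower and 0 higher (1 higher without Dam::EMR-1 cec-4 replicate 1 or 3 or GFP::Dam cec-4 replicate 1), and their median was −1.34 against 0.16 over all bins. They included the chromodomain gene cec-3 (−5.23 ± 0.93), the histone acetyltransferase gene cbp-1 (−5.10 ± 0.86), and anc-1, whose giant protein anchors nuclei (−4.63 ± 0.76). Over all tested bins 28.0% were higher and 25.0% lower. In arms 9 of 14 bins of this list were lower (64.3%), against 18.6% over all arm bins. In centres 3 of 12 were lower (25.0%, median −0.87), against 37.8% and −0.99 over all centre bins, so the list was not lower there.

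Called bins formed runs. Runs of at least 10 bins with calls in 1 direction, bridging up to 2 uncalled bins in a row, were called domains. Bridged bins count towards the 10, so a domain can hold fewer called bins, such as 4 of 10 at 1570001 to 1670000 on II. There were 108 domains of higher bins with 1417 called bins (50.8% of all higher bins), and 105 of these domains lay in arms. There were 75 domains of lower bins with 1046 called bins (42.0% of all lower bins), and 44 of these domains lay in centres. Among all called bins, 2557 of 2791 higher ones lay in arms and 1256 of 2488 lower ones in centres. In all 183 domains the 3 pairs had the same sign, which the calls largely fix. The longest higher domain covered 52 bins at the left end of II (170001 to 690000), with a median of 1.89, 44 bins called and 45 called higher in wild type. It holds 110 protein-coding genes, among them the chitin synthase gene chs-2, the cohesin loader gene scc-2 and the T-box gene mab-9. The right arm of IV held a domain of 40 bins (15050001 to 15450000, median 2.25, 49 protein-coding genes) with pkd-2, a polycystin gene. On V the domain from 3200001 to 3570000 (37 bins, median 1.91) held 33 chemoreceptor genes among 105, and that from 3790001 to 4130000 (34 bins) held 13 cytochrome P450, 11 nuclear hormone receptor and 26 chemoreceptor genes among 90. The domain from 14440001 to 14790000 on II (35 bins) holds unc-52, the perlecan gene.

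The longest lower domains lay side by side in the centre of II. The first covered 92 bins (6560001 to 7480000) with a median of −3.63 and 217 protein-coding genes, among them the kinesin gene unc-104, the agrin gene agr-1 and tra-2. Over its length it had 11884 reads with Dam::EMR-1 and 238042 with GFP::Dam, and 87 of its bins were lower in wild type. The next covered 81 bins (8000001 to 8810000), including ire-1 of the unfolded protein response, then 53 bins (8840001 to 9370000) and 37 bins (7530001 to 7900000). On X the longest were a domain of 33 bins in the centre and 1 of 33 bins in the left arm (4430001 to 4760000, median −2.53), with ncr-1, a relative of the Niemann-Pick C1 gene. Of the 75 lower domains 26 lay on X and 17 in autosome arms, such as the 28 bins at 3650001 to 3930000 on III (median −1.85, with dpy-27 of the dosage compensation complex) and the 18 bins at 14580001 to 14760000 on I (median −1.87, with the tropomyosin gene lev-11). Of that last domain 4 bins were called lower in wild type, where its median was −0.35. Only 3 higher domains lay in centres, at 7240001 to 7380000 and 7550001 to 7680000 on V (medians 1.95 and 1.59) and at 8930001 to 9040000 on I (median 1.92).

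Gene lists were set against all tested bins, of which 28.0% were higher and 25.0% lower. They were chosen with results of these data known, so their counts are descriptions. Intestine genes lay low in Dam::EMR-1 in cec-4. Among 43 bins of intestine genes 4 were higher and 30 lower, and the median was −2.82. In arms 4 of 22 were higher and 12 (54.5%) lower, against 38.5% higher and 18.6% lower over all arm bins. In centres 0 of 21 were higher and 18 (85.7%) lower, against 7.04% and 37.8% over all centre bins. The aspartic protease gene asp-1 in the right arm of V had 262, 85 and 80 reads with Dam::EMR-1 and 8943, 1527 and 18887 with GFP::Dam (−5.44 ± 0.99). The peptide transporter gene pept-1 on X had 0, 26 and 3 against 290, 411 and 1288 (−5.51 ± 1.17), the intermediate filament gene ifb-2 on II 76, 26 and 3 against 1676, 857 and 3279 (−5.49 ± 0.84), and the microvillar actin gene act-5 at the right end of III 121, 375 and 140 against 7009, 1794 and 16340 (−4.66 ± 0.92, SE). In these bins every Dam::EMR-1 library was below every GFP::Dam library.

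A small group of intestine genes lay high. The GATA factor gene elt-7 had 2044, 672 and 685 reads against 280, 336 and 550 (1.75 ± 0.36), and the esterase gene ges-1 stood at 1.25 ± 0.34, the yolk protein gene vit-5 at 1.22 ± 0.36 and the desaturase gene fat-5 at 0.84 ± 0.34 (edgeR's adjusted p = 0.0466). Their ratios in wild type were 1.61, 1.26, 1.02 and 1.27. The yolk gene vit-2 was lower (−1.67 ± 0.65, edgeR's adjusted p = 0.0379), and those of vit-6, vit-1 and the shared bin of vit-3 and vit-4 were not called. No RNA was measured, so the labelled tissue could not be checked by the expression of these genes.

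Genes that most cells use lay low as well. Among 105 bins of ribosomal protein and proteasome genes 3 were higher and 68 lower, the median was −2.42, and 38 of the 68 lay in arms. The bin of rpl-36 and rps-21 on III had 3, 29 and 4 reads against 732, 883 and 1633 (−6.15 ± 1.03), whereas rpl-17 on I was higher (1.42 ± 0.44, edgeR's adjusted p = 0.0120). Of 19 bins of heat-shock protein genes, 12 were lower and 1 higher (median −1.96). The BiP-type chaperone gene hsp-3 stood at −5.72 ± 0.89 and the small heat-shock gene hsp-12.1 at 1.04 ± 0.40. Histone genes, whose near-identical copies make read placement uncertain, had 10 lower and 2 higher bins among 21 (median −0.99). Of these bins 14 lay in centres, where 42.9% were lower (median −0.91), near the 37.8% and −0.99 of all centre bins. In arms 4 of 7 histone bins were lower, against 18.6% over all arm bins. The counts of higher bins moved when 1 library was left out. Without 1 of the 6 cec-4 libraries histone genes had 0 or 1, ribosomal and proteasome genes 1 without Dam::EMR-1 replicate 1 or GFP::Dam replicate 2, and heat-shock genes 0 without replicate 1 or 2 of either fusion.

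**Figure D5:**
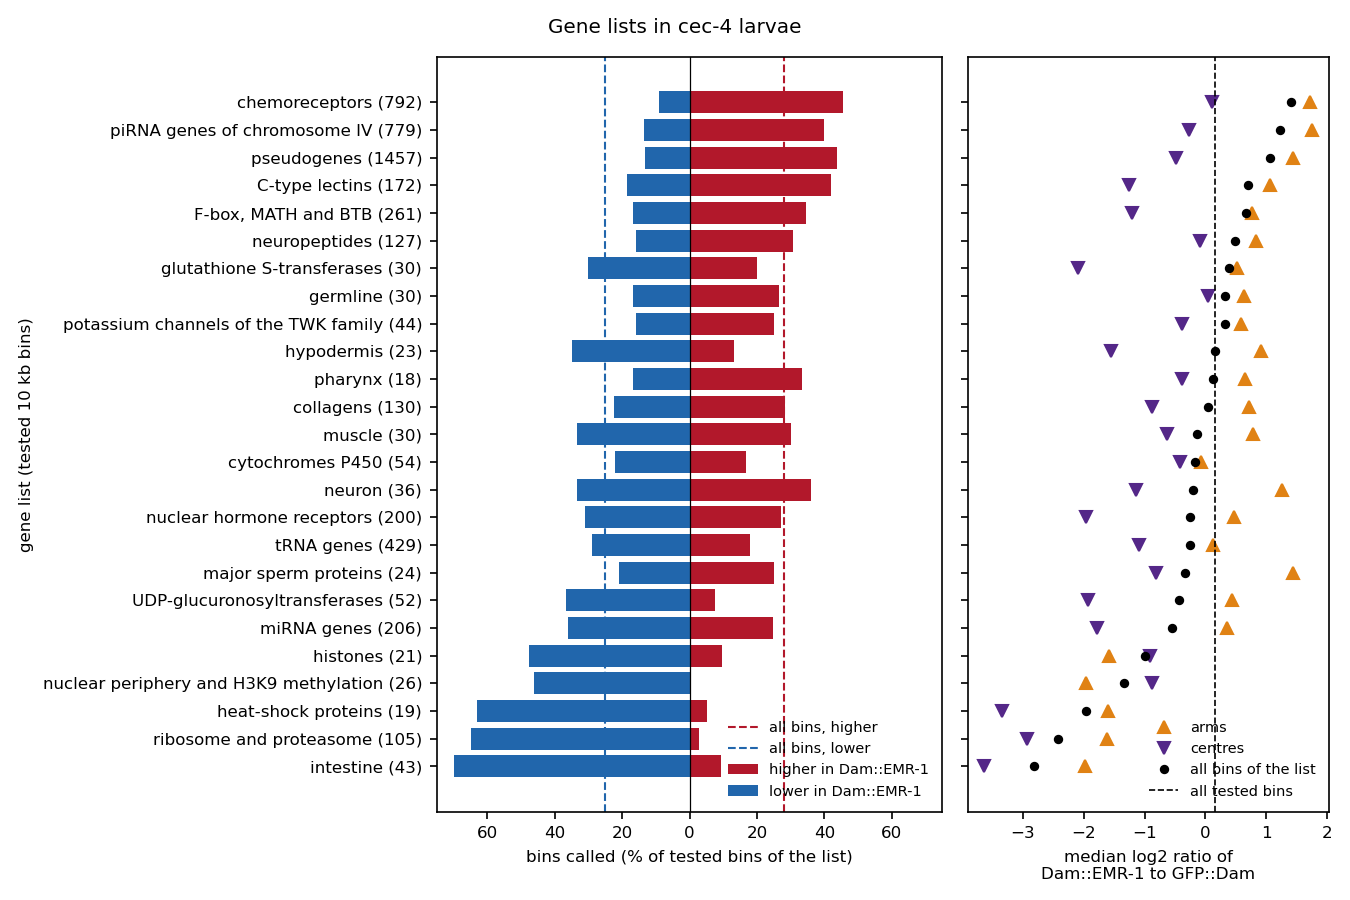
Left, percentage of tested 10 kb bins of 25 gene lists called higher (red) or lower (blue) in Dam::EMR-1 in cec-4, with dashed lines for all tested bins (28.0% and 25.0%). Right, median log2 ratio of each list (black), of its arm bins (triangles up) and centre bins (triangles down), from −2.82 for intestine to 1.42 for chemoreceptors, with all tested bins at 0.16 (dashed).

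Chemoreceptor genes, the largest gene family of the worm, lay high. Among their 792 bins 360 (45.5%) were higher and 72 (9.09%) lower, and the median was 1.42. Of these bins 75.4% lay in arms, against 66.6% of all tested bins. In autosome arms 339 of 579 chemoreceptor bins (58.5%) were higher and their median was 1.77, against 42.7% and 0.93 for all autosome arm bins. In autosome centres their median was 0.10, with 20 of 192 (10.4%) higher and 28 (14.6%) lower, against −0.88, 8.11% and 36.8% for all. In X arms 1 of 18 was higher and 3 lower. The bin of str-78 and srg-51 on IV had 12, 66 and 103 reads against 1, 15 and 3 (3.76 ± 1.15, SE; edgeR's adjusted p = 0.0112), and that of srd-58 and srd-59 in the low domain of II 17, 33 and 70 against 2445, 813 and 4149 (−5.44 ± 0.77).

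Other expanded families differed from the chemoreceptors. C-type lectin genes were higher in 72 of 172 bins and lower in 32 (median 0.70), and F-box, MATH and BTB genes in 90 and 44 of 261 (median 0.66), with 82.0% and 93.9% of their bins in arms. The arm medians of these lists were 1.06 and 0.77, against 0.73 over all arm bins. Of their arm bins 48.9% and 36.3% were higher, against 38.5% over all arm bins, so the F-box, MATH and BTB genes lay near that share. Examples were fbxc-55 (3.31 ± 0.55), from 553, 221 and 487 reads against 36, 67 and 66, and clec-178 (−5.36 ± 0.97), from 103, 88 and 102 against 5750, 1877 and 10831. Nuclear hormone receptor genes had 54 of 200 bins higher and 62 lower (median −0.24). Of their arm bins 34.2% were higher and 26.8% lower, against 38.5% and 18.6% over all arm bins. Their centre median was −1.97, against −0.99 over all centre bins. Collagens had 37 of 130 bins higher and 29 lower (median 0.05). They had 16 lower without GFP::Dam cec-4 replicate 1 and 19 without GFP::Dam replicate 3 or Dam::EMR-1 replicate 2. Of collagen arm bins 46.8% were higher and 12.9% lower, and of centre bins 11.8% were higher and 30.9% lower. Over all centre bins 7.04% were higher and 37.8% lower. Cytochromes P450 had 9 of 54 bins higher and 12 lower (median −0.17), with 21.1% of arm bins higher. Glutathione S-transferase genes had 6 of 30 bins higher and 9 lower, and UDP-glucuronosyltransferase genes 4 of 52 higher and 19 lower (median −0.43). In the latter 14 of 26 centre bins (53.8%) and 5 of 26 arm bins (19.2%) were lower, against 37.8% and 18.6% over all. Without Dam::EMR-1 cec-4 replicate 1 the family had 8 higher and 11 lower bins, and without Dam::EMR-1 replicate 2 or GFP::Dam replicate 1 it had 2 higher. Neuropeptide genes had 39 of 127 bins (30.7%) higher and 20 lower (median 0.49). TWK potassium channel genes had 11 of 44 (25.0%) higher and 7 lower (median 0.32). Both higher shares were close to the 28.0% of all bins, but 15.7% and 15.9% were lower, against 25.0%. Of their bins 55.9% and 47.7% lay in arms, against 66.6% of all tested bins. In arms 43.7% and 38.1% were higher, against 38.5% over all arm bins. In centres 8 of 56 and 3 of 23 were higher, against 7.04% over all centre bins. Their centre medians were −0.096 and −0.38, against −0.99. Without GFP::Dam cec-4 replicate 1 the neuropeptide and TWK genes had 23 and 6 higher bins. The TWK genes had 6 or 7 without GFP::Dam replicate 3 or Dam::EMR-1 replicate 2 or 3.

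Markers of tissues other than the intestine showed no shared direction. Muscle genes were higher in 9 of 30 bins and lower in 10, with hlh-1, the MyoD-type gene of muscle (2.59 ± 0.37), and the myosin chaperone gene unc-45 (2.73 ± 0.40) at the high end and the cofilin gene unc-60 (−4.40 ± 0.90) at the low end. Neuron genes were higher in 13 of 36 bins and lower in 12. Of the higher ones 8 lay in arms, such as unc-17, the vesicular acetylcholine transporter gene (2.60 ± 0.73), and of the lower ones 11 lay in centres, such as the neuropeptide-processing gene egl-21 (−3.94 ± 1.12). The 5 in centres were unc-86, unc-13, tax-4, tax-2 and eat-4, named because they are few. Tax-2 stood at 2.66 ± 0.79 in cec-4 and 0.62 in wild type, and tax-4 and eat-4, close together on III, at 1.72 ± 0.32 and 1.74 ± 0.33, against 0.81 and 0.87 in wild type. These bins were chosen by their cec-4 call, which favours high values in cec-4. No 10 kb bin passed edgeR's test of a difference from wild type. Pharynx genes were higher in 6 of 18 bins and lower in 3, germline genes in 8 and 5 of 30, and hypodermis genes in 3 and 8 of 23, where the molting gene mlt-11 (2.25 ± 0.51) was high and wrt-1 (−3.63 ± 1.11) low. Major sperm protein genes, which have near-identical copies, had 6 of 24 bins higher and 5 lower. Over all tested bins 28.0% were higher and 25.0% lower. The lists differ in place, with 72.2% of pharynx but 36.7% of germline bins in arms. In arms 5 of 13 pharynx, 4 of 11 germline and 3 of 10 hypodermis bins were higher, against 38.5% over all arm bins. In centres 1 of 5, 4 of 19 and 0 of 13 were higher, against 7.04% over all centre bins. Lower there were 2, 4 and 7, against 37.8%. The germline centre median was 0.05 and the hypodermis one −1.55, against −0.99. Several of these small counts moved when 1 library was left out. Muscle lower bins numbered 6 without Dam::EMR-1 cec-4 replicate 2 or 3 or GFP::Dam cec-4 replicate 1 or 3. Hypodermis lower bins numbered 4 without Dam::EMR-1 replicate 3 and 5 without GFP::Dam replicate 1 or 3, and higher bins 5 without Dam::EMR-1 replicate 2. Germline higher bins numbered 5 without replicate 1 of either fusion, and lower bins 3 without Dam::EMR-1 replicate 2 or 3 or GFP::Dam replicate 3.

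Genes for small RNAs and pseudogenes extended the map. Bins with a pseudogene were higher in 639 of 1457 and lower in 194 (median 1.07), and in autosome arms their median was 1.49 against 0.93 for all autosome arm bins. On chromosome IV, which carries the main clusters of piRNA genes, bins with 30 or more piRNA genes were higher in 126 of 232 and lower in 12 (median 2.15), and bins of IV without any in 230 of 956 and 255 (median −0.05). Within the arms of IV the medians were 2.17 with 30 or more, 1.70 with 10 to 29, 1.18 with 1 to 9 and 0.53 without. In the centre of IV bins with 10 to 29 piRNA genes had a median of 1.49 against −1.20 without, with 16 of 48 and 12 of 328 higher. The wild-type medians of these last classes were 0.66 and −1.94. Bins with tRNA genes were higher in 77 of 429 and lower in 124 (median −0.25). More of them lay in X arms than in autosome centres, the reverse of all tested bins. Their medians were 0.60 in autosome arms, −0.89 in autosome centres, −0.40 in X arms and −1.20 in the X centre. Over all bins these medians were 0.93, −0.88, −0.36 and −1.26, so the tRNA bins lay clearly lower only in autosome arms. Bins with miRNA genes were higher in 51 and lower in 74 of 206 (median −0.55). The lowest called miRNA bin was that of mir-60 (−5.39 ± 1.39). For these classes too, the annotation places several genes in 1 bin, so a bin can count in more than 1 list.

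Higher and lower bins differed in content. Higher bins held 1.86 protein-coding genes on average and lower bins 2.15, and 22.9% of higher bins held a pseudogene against 7.80% of lower bins. The GFP::Dam level was a median of 34.8 CPM (reads per 1e6 reads of the library, scaled) in higher bins, 31.8 in uncalled bins and 111 in lower bins. The Dam::EMR-1 level was 125, 31.5 and 14.8. GFP::Dam counts are the denominator of the ratio, so these levels are not independent of the calls. Bins were divided by GFP::Dam level into 5 classes of equal size. In each class the median was higher in autosome arms than in autosome centres, and in both it fell as that level rose. The classes are cut on the denominator of the ratio, and the part of GFP::Dam level in the contrast was not tested. In the lowest class the median ratio was 1.79 in autosome arms and 0.50 in autosome centres, in the middle class 1.06 and −1.10, and in the highest class −0.54 and −2.67.

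For each 10 kb bin the authors' deposited table holds 1 log2 ratio, which equals the log2 of the average, across the replicates, of Dam::EMR-1 to GFP::Dam read shares. This formula matched the deposited counts within 1e-06 in all 9679 bins that could be compared, with 351 not compared, and the deposited table lists 62 bins at 0. In the authors' deposited table all 2791 bins called higher had a value above 0 and 2484 of the 2488 called lower had one below 0. The median in the authors' deposited table was 0.56, above the 0.16 of the fitted ratios.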

How the data were processed

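DamID reads of 22 libraries of L1 larvae came as tables in bins of 1, 10 or 100 kb (build ce11, per the submitters' processing notes). The deposited count tables hold mapped reads per bin without normalization, and the deposited log2 tables hold, per genotype and RNAi condition, 1 ratio of Dam::EMR-1 to GFP::Dam. Which aligner and filters were used, and how repeats were treated, is not given in the sources used here. Gene names and positions came from the RefSeq annotation of WBcel235, the same assembly.

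Counts of nuclear bins were fitted with edgeR 4.0.16 in R 4.3.3 (TMM scaling, filterByExpr, quasi-likelihood test) over all 22 libraries, with 8 groups and the replicate number as a block, because the labels say that strains of a number were grown in parallel. Deviations of cec-4 libraries from their group means correlated at 0.642, 0.765 and 0.461 between fusions of the same number, and at −0.597 to 0.141 between different numbers. Calls used a Benjamini-Hochberg adjusted p under 0.05 over all tested bins. The SE is the absolute log2 ratio divided by the square root of F. Pair values are log2 ratios of TMM-scaled CPM with a pseudocount of 1, averaged over bins for arms and centres, and were tested with limma 3.58.1 over 11 pairs and by exact permutation.

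Named bins were the 12 highest and 12 lowest called bins with all 3 pairs on 1 side, at least 30 GFP::Dam reads, at least 100 reads in all, a symbol-bearing protein-coding gene over at least 1000 bases and at most 1 bin per 100 kb. Genes tied to the experiment, the highest and lowest called bin of each list and the longest domains were named too. The comparison, the members and the lists were chosen with earlier results of these data known. Alternatives were DESeq2 1.42.0, library-size scaling, no filter, no block, the 6 cec-4 libraries alone, a pseudocount of 5, narrower arms (0.25 of the length each), 100 kb bins, the deposited log2 values and leaving out each library or pair. Leaving out the ribosomal RNA bin was added after seeing the data. Fits were tested on simulated data.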

Additional observations from a re-analysis of the deposited data

Results flagged for a closer look

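The difference between each arm and the centre of its chromosome was smaller in cec-4 than in wild type in all 12 arms by limma's test of the difference, which is why each is listed here. The values, cec-4 minus wild type in log2 units, were −1.37 for the left and −1.61 for the right arm of I, −1.49 and −1.10 on II, −1.69 and −1.22 on III, −0.99 and −0.84 on IV, −1.23 and −1.51 on V, and −0.75 and −0.59 on X, with 3 pairs of libraries in each genotype. The wild-type Dam::EMR-1 libraries were shallower, with 80 reads in the median tested bin of the shallowest against 209 in cec-4, and the part of depth was not tested.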

How the results depend on the processing

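With the replicate block left out, 2100 bins of 10 kb were higher and 2018 lower in cec-4, and over all alternatives the counts ran from 2100 to 3159 and from 2018 to 3093, within 1.5 times the main counts of 2791 and 2488. No called bin changed sign in any of the 12 alternatives run at 10 kb. Without Dam::EMR-1 cec-4 replicate 1, the library with most empty bins, 2570 were higher and 2164 lower. Leaving out 1 library at a time, 2101 to 2328 of the wild-type higher bins were still higher, and 1829 without the replicate block. The arm minus centre difference on autosomes ran from 1.25 (pseudocount 5) to 1.68 (100 kb bins), and from 1.43 to 1.62 without 1 pair. All 12 arms exceeded their centre, and were below wild type, in all 8 alternatives run with limma.

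The difference from wild type depended most on the fit. At 10 kb DESeq2 called 82 higher and 104 lower where edgeR called 0 and 0, also without any 1 library. At 100 kb 46 rose and 11 fell without the replicate block, against 192 and 61 with it, 87 and 115 without the ribosomal RNA bin, and 97 fell with DESeq2. Without 1 library 54 to 190 rose and 27 to 72 fell. The lowest counts of windows that rose, 54 and 82, came without GFP::Dam cec-4 replicates 1 and 3, and the lowest that fell, 27, 35 and 37, without GFP::Dam cec-4 replicate 3 and Dam::EMR-1 cec-4 replicates 3 and 2. The cause was not tested.

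Of the named bins, that of lmn-1 turned to 0.29 without GFP::Dam cec-4 replicate 1 and ran down to −1.16 without 1 library. The met-2 bin turned to 0.17 with scaling by library size, to 0.33 without Dam::EMR-1 cec-4 replicate 1 and to 0.49 without GFP::Dam cec-4 replicate 2, with −0.31 as the lowest value without 1 library. Neither was called in any alternative. The lem-2 bin was called only by DESeq2 (−1.75, with DESeq2's adjusted p under 0.05), and the hsp-16.41 bin with library-size scaling and with the 6 cec-4 libraries alone. Dam::EMR-1 counts in the lowest named bins were mostly under 50 reads.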
